A study of Mus musculus with 3 samples.

Results

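Described here are 10 genes of the prolactin and growth hormone branch of Jak-Stat signalling, chosen by name from the 47480 gene symbols of the tables: the receptor genes Prlr and Ghr, the kinase genes Jak1 and Jak2, the transcription factor genes Stat3, Stat5a and Stat5b, and the feedback genes Socs2, Socs3 and Cish. All 10 had a row in each table, and all passed the filter on low counts. They were measured by RNA-seq in 3 mammary tumours of the strain FVB-MMTV-Neu, which carries Neu (Erbb2) as a transgene under the promoter of MMTV, the mouse mammary tumour virus. By the labels' protocols the tumours grew orthotopically in syngeneic hosts to a diameter of 5 mm and were then kept for 7 days without treatment, whereas the series' design text speaks of tumours from MMTV-Neu mice, so the host is not settled. All 3 belong to 1 untreated group, with 1 library each, and are called tumours 1, 2 and 3 in accession order. No treated, normal or wild-type tissue was analysed here. Nothing in the labels says whether the tumours came from separate donors.

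Prolactin and growth hormone bind related receptors of the class I cytokine receptor family, which have no kinase activity of their own and signal through bound Jak2. The kinase phosphorylates Stat5a and Stat5b, which move as dimers to the nucleus and bind DNA at palindromic sites. In the mammary gland this pathway drives the growth of alveoli in pregnancy and the expression of milk protein genes. Jak1 with the shared receptor subunit gp130 instead carries signals of the interleukin 6 family, mainly to Stat3, which acts in the regression of the gland after weaning. Cish, Socs2 and Socs3 encode SH2-domain proteins that are induced by activated Stats and restrain the receptors and kinases upstream. Transcript levels do not measure the phosphorylation of any of these proteins.

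The Stat5a and Stat5b sequences are shown first because they limit how far these 2 genes can be told apart by short reads. In GENCODE M21 on GRCm38, the assembly also called mm10, Stat5b (11, 100780731 to 100850724, minus strand), Stat5a (100859351 to 100885169, plus strand) and Stat3 (100885098 to 100939540, minus strand) lie side by side within 158810 bases of chromosome 11, with 8626 bases between Stat5b and Stat5a. The coding sequences of Stat5a and Stat5b were 90.7% identical over 2291 aligned bases, against 55.2% for Stat5a and Stat3. Their longest identical run was 324 bases, from base 571 to base 894 of both coding sequences. Its first 120 bases are given once, followed by the first 120 coding bases of each gene, where capitals mark the 24 positions that differ.
Stat5a and Stat5b, shared run: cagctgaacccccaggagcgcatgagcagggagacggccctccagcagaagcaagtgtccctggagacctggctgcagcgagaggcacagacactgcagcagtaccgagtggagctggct
Stat5a: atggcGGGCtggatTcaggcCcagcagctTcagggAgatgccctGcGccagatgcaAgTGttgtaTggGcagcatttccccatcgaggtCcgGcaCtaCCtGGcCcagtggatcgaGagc
Stat5b: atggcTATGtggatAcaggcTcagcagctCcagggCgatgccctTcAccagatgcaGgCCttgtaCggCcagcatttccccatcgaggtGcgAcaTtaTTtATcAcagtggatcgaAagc
A read of 50 bases from the shared run fits both genes equally well. The libraries were read as pairs, and a pair fits both genes only if each of its reads does. Of all 50-base words of the longest Stat5a transcript, 10.8% also occurred in a Stat5b transcript, and 11.8% the other way round. No such word was shared between Stat5a and Stat3, between Jak1 and Jak2, between Prlr and Ghr, or among Cish, Socs2 and Socs3. The estimated counts show a division of shared reads in tumours 1 and 2. Stat5a had 1452.8928 and Stat5b 1856.1095 reads in tumour 1, neither of them whole, while their sum was 3309.0023 reads. In tumour 2 they had 224.4643 and 173.5361 reads, with a sum of 398.0004. In tumour 3 they had 369.9998 and 302 reads, both whole to within 0.001, so no division shows there. The summed value is therefore given beside the single ones.

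The DNA word TTCNNNGAA, the core of the palindromic Stat binding site, was looked for in the RefSeq promoter windows of the same assembly, which run from 250 bases before to 50 bases after each annotated start. The word reads the same on both strands. It was present in 8.3% of all 32851 windows, and 0.457% held it at least 2 times. Of the 10 genes, all but Socs2 had a window (14 windows in all). The word was found in 3 windows, those of Cish, Socs3 and 1 of the 3 Prlr windows. The Cish window held it at positions 1 and 12, counted from the annotated start, and the feedback gene is a textbook Stat5 target. Position −154 of Socs3 and position −110 of the Prlr window also held it. These sites are printed with 30 bases each, in the direction of the gene, with the fixed letters of the word in capitals.
Cish, chr9:107296654-107296683, plus strand: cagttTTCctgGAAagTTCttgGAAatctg
Socs3, chr11:117969502-117969531, minus strand: agaaaccagccTTCttaGAAgggagggggg
Prlr, chr15:10223785-10223814, plus strand: ggcaaaatgagTTCtagGAAtaagggatat
The 3 sites lie inside the longer GENCODE models of these genes. A letter match is a description of the window and does not show that a Stat protein binds there.

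Depth differed between the libraries, with total estimated counts of 47449153 in tumour 1, 11388769 in tumour 2 and 17147394 in tumour 3. The lane numbers in the file headers put tumour 1 in lane 1 and the others in lane 5, so lane and the difference of tumour 1 from the others cannot be told apart. Levels are counts per 1000000 (CPM) of library totals past the filter, scaled with TMM factors of 1.48, 0.722 and 0.936, and brackets hold 95% Poisson intervals, which cover counting error only. Of the labelled tissue, the 7 luminal epithelial markers summed to 2058, 1651 and 2522 CPM in tumours 1, 2 and 3, and Erbb2 was at 75.5, 104 and 93.6 CPM. The Erbb2 counts are those of the mouse gene, and how far reads of the transgene enter them was not tested. Behind the luminal sum, single markers went in different directions, and 5 of 7 were at least 2-fold apart between tumours (65.6% of all genes). Krt8, at 407, 734 and 1038 CPM, was lowest in tumour 1, and Cldn3, at 420, 86.6 and 222 CPM, was highest there. Markers of other cells were also uneven. The 9 skeletal muscle markers summed to 4.89, 49900 and 22260 CPM, with none at 0 in any tumour, the 5 basal markers to 669, 64.3 and 96.8 CPM, the 8 adipocyte markers to 504, 459 and 329 CPM, and the 6 macrophage markers to 444, 3110 and 1933 CPM. C1qa made up most of the macrophage sum in tumours 2 and 3, at 161, 2426 and 1369 CPM. In tumour 1, 3 of the 6 markers were at least 2-fold below both other tumours (20.7% of all genes). Cd68, at 24.5, 18.3 and 22.8 CPM, and Adgre1, at 13.8, 11.6 and 11.9 CPM, were highest there, both chosen after their values were seen. Adgre1 did not exceed counting noise in the chi-square test described below. The Cd68 intervals of tumours 1 and 3 overlap, at 23.4 to 25.7 and 20.5 to 25.3 CPM. The 7 fibroblast markers summed to 3989, 6462 and 3483 CPM and the 5 endothelial markers to 138, 1029 and 370 CPM, of which Pecam1 had 56.4, 775 and 231 CPM. In tumour 1, 2 of the 5 endothelial markers were at least 2-fold below both other tumours (20.7% of all genes). The part of all these cell types in the values that follow was not tested. In bulk tissue, fewer cells of a type and less RNA per cell cannot be told apart.

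Counting noise was exceeded by all 10 genes in a chi-square test of the 3 libraries, with Benjamini-Hochberg adjustment over 12710 genes, but also by 94.2% of all genes tested. The test compares these libraries, not conditions. For 7 of the 10, the highest and the lowest tumour were at least 2-fold apart, against 65.6% of all genes. At 4-fold these were Prlr, Stat3, Socs2 and Socs3, 4 of 10, against 29.5%. A gene was said to stand above or below in a tumour when its log2 CPM differed by at least 1 (2-fold) from both others. In tumour 1, 3 of the 10 stood above (22.1% of all genes), namely Prlr, Jak1 and Socs3, and 2 stood below (20.7%), namely Stat3 and Socs2. None stood above (5.43%) or below (7.14%) in tumour 2. In tumour 3 none stood above (0.865%) and 1, Cish, stood below (1.35%). The shares for tumour 1 are near those of all genes. All genes here means those past the filter, which asks for a minimum level in all 3 tumours. Without the filter the same members were called. Of 23882 genes, 25.4% then stood above and 15% below in tumour 1. These shares were 8.1% and 11.1% in tumour 2, and 4.77% and 3.58% in tumour 3. At 4-fold, none of the 10 stood above (6.05% of all genes) or below (8.21%) in tumour 1, above (0.252%) or below (0.59%) in tumour 2, or above (0.0787%) or below (0.0787%) in tumour 3. With 1 library a tumour, these differences have no replicate check.

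**Figure D1:**
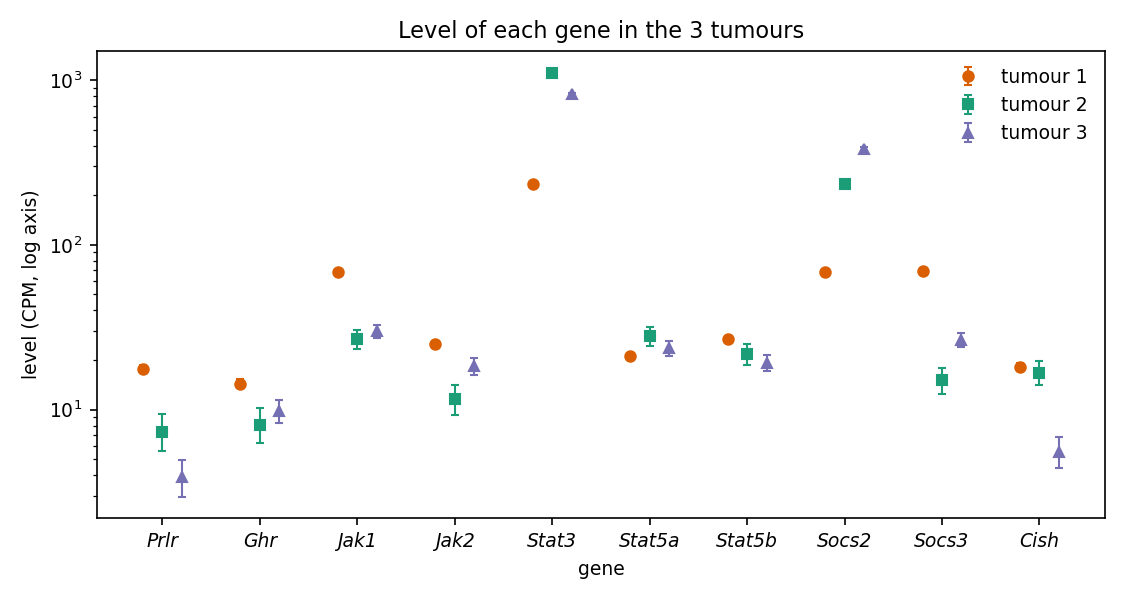
Level of each of the 10 genes in CPM (log axis) in tumours 1, 2 and 3, with 95% Poisson intervals as bars. Stat3 lies highest in every tumour, Prlr, Jak1 and Socs3 are highest in tumour 1, Stat3 and Socs2 are lowest there, and the Stat5a and Stat5b points lie close together.

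Stat3 transcripts were the most abundant of the set and receptor transcripts among the least. Levels between genes were compared as CPM per kilobase of the longest transcript, which understates a gene whose cells use shorter forms. On this scale Stat3 was at 38.8, 181 and 135 CPM per kilobase, averaging 118 ± 72.7 (SD, n = 3) over the tumours. Socs2 followed with a mean of 53.7 ± 37.0, Socs3 with 14.5 ± 11.2, Jak1 with 8.46 ± 4.69, Stat5a with 6.09 ± 0.874 and Stat5b with 4.33 ± 0.748 CPM per kilobase. Jak2 had a mean of 3.64 ± 1.34, Cish of 2.86 ± 1.47, Ghr of 2.57 ± 0.781 and Prlr of 0.970 ± 0.721 CPM per kilobase. Stat3 was first and Prlr last in each of the 3 tumours. Of the neighbours in this order, only Stat5a over Stat5b and Ghr over Prlr had ranges over the tumours that did not overlap, and for the Stat5 pair the division of shared reads bears on this. The places of Socs2 and Socs3 changed, since in tumour 1 Socs3 was above Socs2, at 27.2 against 16.2 CPM per kilobase.

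**Figure D2:**
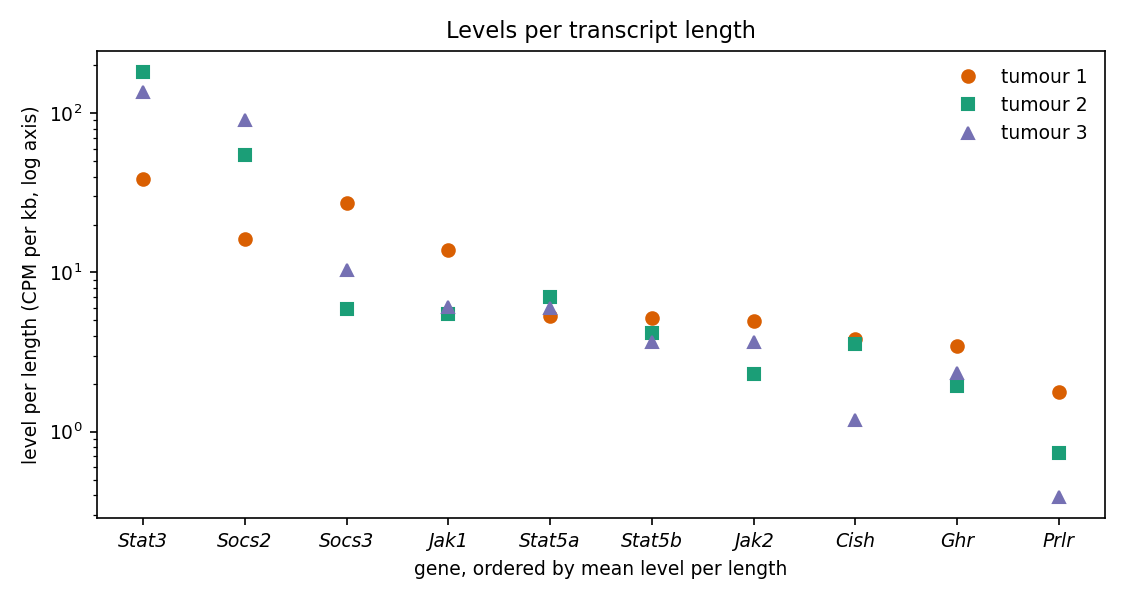
Level per kilobase of the longest transcript (CPM per kb, log axis) for the 10 genes in tumours 1, 2 and 3, ordered by their mean. Stat3 is first with 38.8, 181 and 135 CPM per kilobase and Prlr last with 1.78, 0.741 and 0.392.

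Both receptor genes were highest in tumour 1. Prlr (15, 10177238 to 10349180), which encodes the prolactin receptor, had 1217, 59 and 61 counts, or 17.6 (16.6 to 18.6), 7.33 (5.58 to 9.46) and 3.88 (2.97 to 4.98) CPM in tumours 1, 2 and 3. None of its intervals overlap, and tumour 1 was 2.40-fold (1.85 to 3.17) above tumour 2 and 4.54-fold (3.51 to 5.97) above tumour 3. Ghr (15, 3317760 to 3583492), which encodes the growth hormone receptor, had 995, 65 and 154 counts, or 14.4 (13.5 to 15.3), 8.08 (6.23 to 10.3) and 9.79 (8.30 to 11.5) CPM. The Ghr intervals of tumours 2 and 3 overlap. Tumour 1 was 1.78-fold (1.38 to 2.33) above tumour 2 and 1.47-fold (1.24 to 1.75) above tumour 3, less than the 2-fold used for a call.

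Both receptor genes have long transcripts of low GC content, with 9900 bases and 39.4% GC for the longest of Prlr and 4175 bases and 40.9% GC for that of Ghr. With the trend of log2 CPM on GC content and length removed in each tumour, the difference of tumour 1 from the mean of the others was 1.01 instead of 1.71 for Prlr, which then no longer stood 2-fold above both, and 0.03 instead of 0.69 for Ghr. The sums of basal and adipocyte markers were also highest in tumour 1, at 669 and 504 CPM. All 5 basal markers and 2 of the 8 adipocyte markers stood above there, against 22.1% of all genes. Lpl, also an adipocyte marker, was lowest there, at 72.6, 156 and 90.4 CPM. The sum of skeletal muscle markers was lowest in tumour 1, at 4.89 CPM. Ghr is known to be expressed in fat and muscle, and the part of these cells in its level was not tested.

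Transcripts of prolactin itself were not detectable at this depth. Prl had 0 counts in each tumour, and the limit set by 3 counts is 0.0434, 0.373 and 0.191 CPM in tumours 1, 2 and 3. Gh, the growth hormone gene, had 2, 0 and 0 counts and is named although chosen after its values were seen. Both hormones are made in the pituitary.

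The kinase genes Jak1 and Jak2 were also highest in tumour 1. Jak1 (4, 101152367 to 101265282), which serves the gp130 receptors, was at 68.0 (66.1 to 70.0), 26.7 (23.3 to 30.5) and 29.8 (27.2 to 32.6) CPM. Its level in tumour 1 was 2.54-fold (2.22 to 2.93) that in tumour 2 and 2.28-fold (2.07 to 2.51) that in tumour 3, and the intervals of tumours 2 and 3 overlap. Jak2 (19, 29251828 to 29313080), the kinase bound to the prolactin and growth hormone receptors, was at 25.1 (23.9 to 26.3), 11.6 (9.33 to 14.2) and 18.3 (16.3 to 20.5) CPM. None of the Jak2 intervals overlap, with tumour 2 lowest. Tumour 1 was 2.17-fold (1.76 to 2.70) above tumour 2 but only 1.37-fold (1.21 to 1.56) above tumour 3. With the GC and length trend removed, the difference of tumour 1 from the others was 0.68 instead of 1.27 for Jak1, which then was not called, and 0.05 instead of 0.78 for Jak2.

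Of the transcription factor genes, Stat3 varied 4.67-fold between the tumours, Stat5a 1.33-fold and Stat5b 1.40-fold. Stat3 had 16234, 8818 and 12858 counts, or 235 (231 to 238), 1096 (1073 to 1119) and 817 (803 to 831) CPM in tumours 1, 2 and 3. Tumour 1 was lowest, at 0.214 (0.209 to 0.220) times the level of tumour 2 and 0.287 (0.281 to 0.294) times that of tumour 3. Among all genes past the filter, Stat3 lay at percentiles 96.9, 98.9 and 98.7. Stat5a was at 21.0 (19.9 to 22.1), 27.8 (24.3 to 31.7) and 23.5 (21.2 to 26.0) CPM, and Stat5b at 26.8 (25.6 to 28.1), 21.6 (18.5 to 25.1) and 19.2 (17.1 to 21.5) CPM. Tumour 1 was lowest for Stat5a and highest for Stat5b. Their sum, which does not depend on how shared reads were divided, was 47.8, 49.5 and 42.7 CPM, or 46.7 ± 3.53 CPM (SD, n = 3). Stat3 and Stat5a overlap by 72 bases on opposite strands, and without a stated strand setting reads from those bases cannot be assigned with certainty.

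The feedback genes went in different directions. Socs2 (10, 95385362 to 95417180), which restrains growth hormone signalling in mice, had 4744, 1875 and 6013 counts, or 68.6 (66.6 to 70.6), 233 (223 to 244) and 382 (373 to 392) CPM in tumours 1, 2 and 3. Its lowest level was in tumour 1, at 0.294 (0.279 to 0.311) of tumour 2 and 0.179 (0.173 to 0.186) of tumour 3, and its range of 5.57-fold was the widest of the 10 genes. Socs3 (11, 117966079 to 117970047), which binds gp130 and the bound kinases, was at 69.5 (67.5 to 71.5), 15.04 (12.5 to 18.0) and 26.6 (24.1 to 29.3) CPM. Tumour 1 was highest, 4.62-fold (3.86 to 5.58) above tumour 2 and 2.61-fold (2.36 to 2.89) above tumour 3. Cish (9, 107296026 to 107302784), an inhibitor induced by Stat5, was at 18.0 (17.1 to 19.1), 16.8 (14.1 to 19.9) and 5.53 (4.43 to 6.82) CPM. Cish thus differed from the other feedback genes in that tumours 1 and 2 had overlapping intervals and tumour 3 was low. Tumour 2 was 3.03-fold (2.30 to 4.02) above tumour 3, and both were run in lane 5. Cish overlaps antisense gene models, of which Gm17040 took 3.08 reads in tumour 1 and 0 in the others. After correction for GC content and length, Stat3 and Socs2 were still low in tumour 1 (−2.20 and −2.74 on the log2 scale) and Socs3 still high (2.54).

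Ratios of counts of 2 genes within a tumour do not depend on library scaling. Stat3 over Stat5a was 11.2 (10.6 to 11.8), 39.4 (34.5 to 45.2) and 34.8 (31.3 to 38.6) in tumours 1, 2 and 3, with exact binomial 95% intervals. Socs2 over Socs3 was 0.987 (0.948 to 1.03) in tumour 1, near equality, and 15.5 (12.9 to 18.8) and 14.4 (13.0 to 15.9) in the others, whose intervals overlap. Stat3 over Socs3, a factor over one of its known targets, was 3.38 (3.27 to 3.49), 72.9 (60.9 to 87.9) and 30.7 (27.8 to 33.9). Socs2 over Cish differed in each tumour, at 3.80 (3.57 to 4.05), 13.9 (11.7 to 16.7) and 69.1 (55.9 to 86.4). Prlr over Ghr was 1.22 (1.12 to 1.33), 0.908 (0.627 to 1.31) and 0.396 (0.289 to 0.536), lowest in tumour 3. Jak1 over Jak2 was 2.71 (2.57 to 2.87), 2.31 (1.8 to 2.98) and 1.63 (1.4 to 1.89), and the intervals of tumours 1 and 3 do not overlap. Stat5a over Stat5b was 0.783 (0.730 to 0.839) in tumour 1 and 1.29 (1.05 to 1.58) and 1.23 (1.05 to 1.43) in the others, a ratio that the division of shared reads can move.

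**Figure D3:**
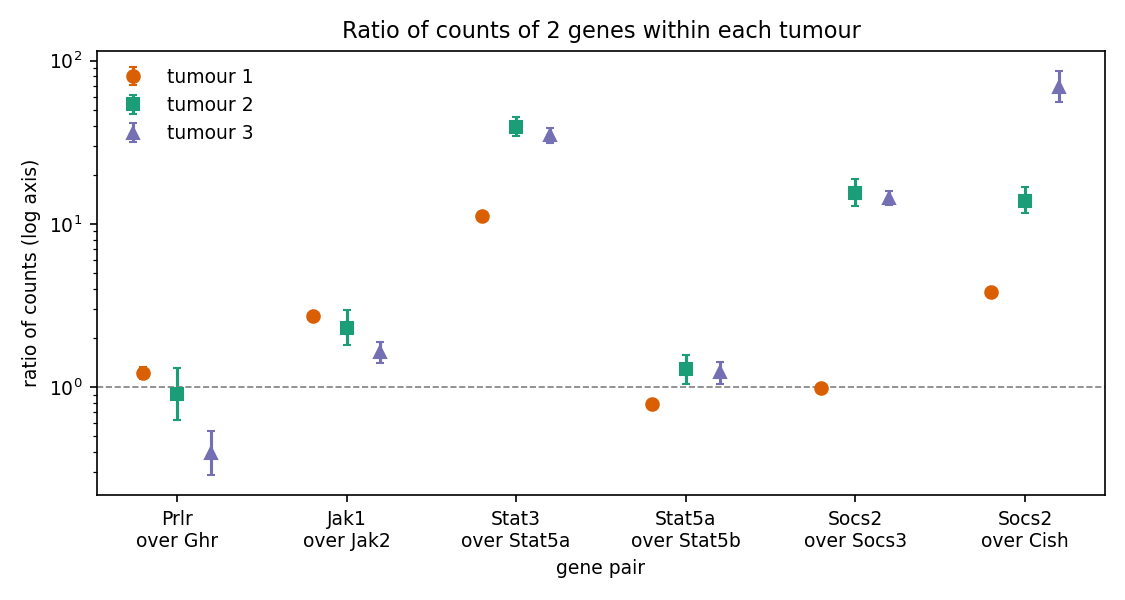
Ratio of the counts of 2 genes within each tumour (log axis), with exact binomial 95% intervals as bars and a dashed line at equality. Socs2 over Socs3 is 0.987 in tumour 1 and 15.5 and 14.4 in tumours 2 and 3, and Stat3 over Stat5a is 11.2 in tumour 1 and 39.4 and 34.8 in the others.

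Of the 10 genes, Stat5a was the only one whose difference of tumour 1 from the others changed sign with the scaling or the GC and length correction. Library totals alone moved the median difference of all genes in tumour 1 by 0.84 on the log2 scale, and 7 of the 10 genes, Prlr, Ghr, Jak1, Jak2, Stat5b, Socs3 and Cish, then stood above both others in tumour 1 and only Stat3 below. Of all genes, 40.4% then stood above and 10.5% below in tumour 1, so that 79.3% of these calls were above, compared with 51.6% with TMM. Socs2 then stood above in tumour 3 (0.976% of all genes), and in tumour 1 differed from the mean of the others by −1.27 on the log2 scale. Stat5a had a difference of 0.56 with library totals alone, 0.15 with the GC and length trend removed and −0.28 with TMM. DESeq2 size factors and TMM factors without the muscle markers and Rn18s-rs5 gave the same genes above and below as the values above. Leaving out tumour 1 compares tumours 2 and 3 within 1 lane, where only Cish of the 10 was 2-fold apart, against 15.9% of 13052 genes. Cish was the 1 gene higher in tumour 2 than in tumour 3 by that rule (7.43% of all genes) and 0 were lower (8.48%), and 6 of 10 differed by more than counting noise, against 62% of all genes. Those 6 were Prlr, Jak2, Stat3, Socs2, Socs3 and Cish.

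**Figure D4:**
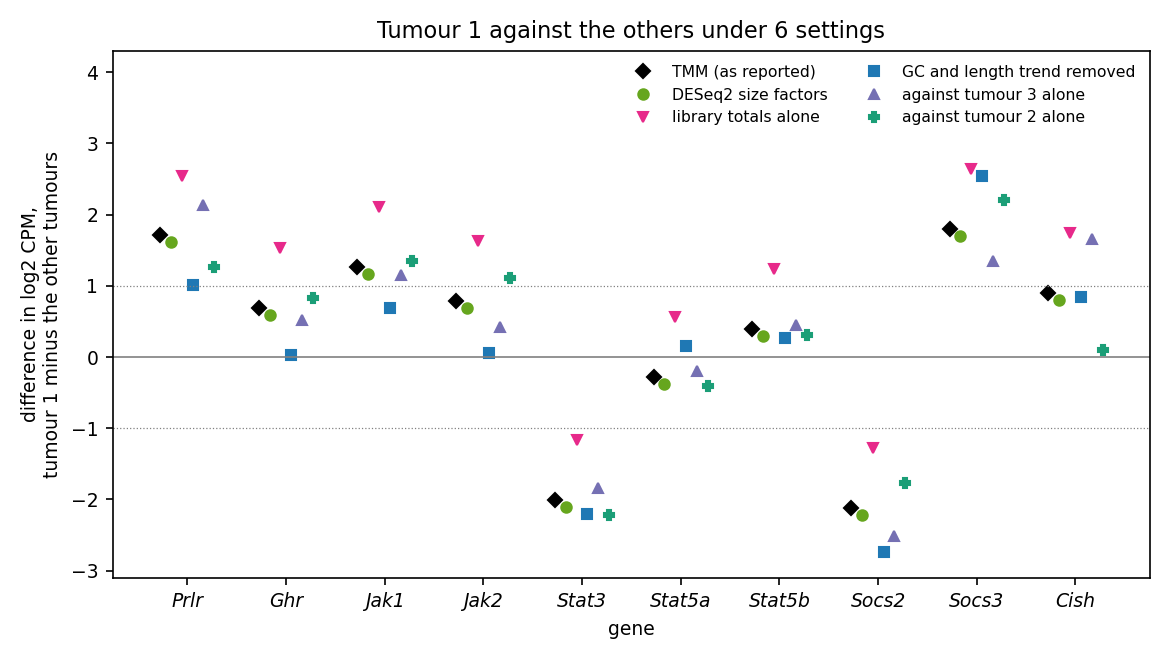
Difference in log2 CPM of tumour 1 from the mean of the other tumours for each of the 10 genes, under 6 settings, with dotted lines at 2-fold. Stat3 and Socs2 stay below 0 and Prlr, Jak1 and Socs3 above 0 in each setting shown, while Stat5a changes sign with library totals alone (0.56) and with the GC and length trend removed (0.15).

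The other genes of the pathway moved in both directions, and lists are described by counts beside all genes, of which 22.1% stood above and 20.7% below in tumour 1 with a median difference of 0.11. Of the other Jak and Stat genes, 5 of 6 passed the filter. In tumour 1, 3 of them stood below and none above, and in tumour 2, 2 stood above (5.43% of all genes). Their median difference in tumour 1 was −1.28, and −0.43 with library totals alone. Jak3, the kinase of the common gamma chain receptors, was at 14.9, 156 and 64.3 CPM. Stat6, which acts downstream of interleukin 4, was at 40.6, 131 and 91.6 CPM, and Tyk2 at 26.3, 73.0 and 35.3 CPM. The macrophage marker sum was also lowest in tumour 1, at 444 CPM, with 3 of its 6 markers below there. Cd68 and Adgre1 were highest there, Adgre1 not beyond counting noise. The part of macrophages in these levels was not tested.

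Of 15 other regulators, all of which passed, 5 stood above and 4 below in tumour 1 (median −0.25, and 0.59 with library totals alone). Socs1, a feedback inhibitor of interferon signalling, ranged most, at 3.01, 48.1 and 38.1 CPM, in the opposite direction to Socs3. The phosphatase gene Ptpn6 was at 25.3, 138 and 99.8 CPM, the SUMO ligase gene Pias4 at 25.3, 110 and 99.6 CPM, and Socs7 at 20.1, 119 and 58.5 CPM. The phosphatase gene Ptpn11, at 136, 21.5 and 25.3 CPM, and the Jak2-binding adaptor gene Sh2b1, at 128, 24.9 and 25.4 CPM, were highest in tumour 1 and were chosen after their values were seen.

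Receptors of the gp130 family, most of which signal through Jak1 to Stat3, were split, with 3 of 7 above and 2 of 7 below in tumour 1 (median 0.38, 1.17 with library totals alone and −0.40 with the GC and length trend removed). The median of 0.38 is the value of Lepr, the leptin receptor gene, chosen after its values were seen. Lepr was at 1.24, 0.870 and 1.02 CPM and did not exceed counting noise. Il6st, which encodes gp130, was at 88.2, 310 and 157 CPM, Il11ra1 at 23.8, 211 and 104 CPM and Il6ra at 7.89, 30.3 and 27.5 CPM, all lowest in tumour 1. Cntfr, at 23.0, 2.36 and 1.02 CPM, was highest there, as were Lifr at 35.9, 13.4 and 9.15 CPM and Osmr at 35.2, 7.83 and 10.2 CPM, the last 2 chosen after their values were seen. Of 9 ligand genes, 4 passed the filter. Lif was at 23.3, 17.5 and 27.7 CPM, Clcf1 at 6.10, 10.2 and 7.94 CPM, and Osm, which encodes oncostatin M, at 1.40, 16.0 and 3.62 CPM. Of these, Osm stood above both others in tumour 2 (5.43% of all genes).

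Known targets of the Stat5 and prolactin branch were split. Of 14, 8 passed the filter, of which 2 stood above and 4 below in tumour 1 (median −0.98, −0.13 with library totals alone and 0.36 without the filter). The filter asks for a minimum level in all 3 tumours. It removed the casein genes Csn1s1, with 325, 3 and 6 counts, Csn2, with 26, 0 and 0, and Csn1s2a, with 2, 0 and 0. Also removed were Wap with 2, 0 and 0 counts, Glycam1 with 11, 0 and 1, and Tnfsf11 with 29, 6 and 3. These were named after their values were seen. The cell cycle gene Ccnd1 was at 674, 1097 and 1227 CPM, the growth factor gene Igf2 at 0.867, 638 and 959 CPM, and Bcl2l1, which encodes a survival factor, at 107, 262 and 221 CPM. The members above in tumour 1, chosen after their values were seen, were Elf5, an alveolar transcription factor, at 96.6, 5.10 and 4.07 CPM, and the casein gene Csn3 at 437, 2.61 and 19.6 CPM. The skeletal muscle marker sum, at 4.89, 49900 and 22260 CPM, was like Igf2 lowest in tumour 1, and was highest in tumour 2. Igf2 was highest in tumour 3. The part of muscle cells in the level of Igf2 was not tested. Of 16 Stat3 targets, all of which passed, 4 stood above and 5 below in tumour 1 (median −0.48, 0.37 with library totals alone and 0.07 with the GC and length trend removed). The lipocalin gene Lcn2 was at 2572, 624 and 1265 CPM, in the order of Socs3, whereas Timp1, an inhibitor of matrix proteases, was at 56.4, 1970 and 837 CPM and the lysosomal protease gene Ctsb at 558, 1217 and 877 CPM, in the order of Stat3.

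**Figure D5:**
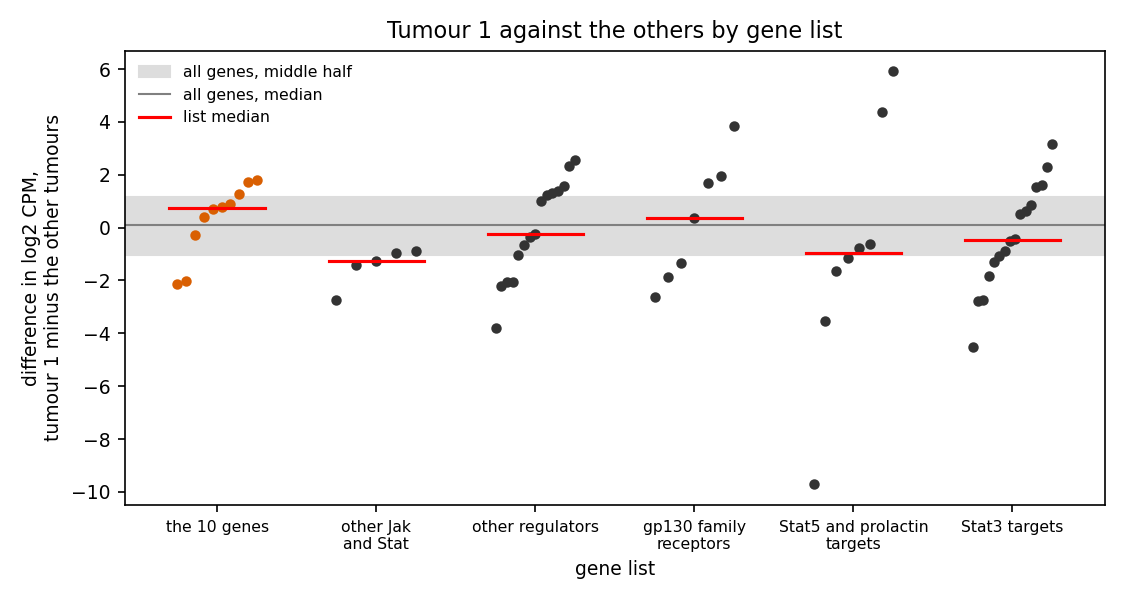
Difference in log2 CPM of tumour 1 from the mean of the others for each gene past the filter, by list, with the list median as a red line and the median and interquartile range of all 12710 genes as a grey line and band. With TMM, the 10 genes have a median of 0.74, against 0.11 for all genes. The other Jak and Stat genes have a median of −1.28 and the Stat3 targets of −0.48. The median of the 10 genes depends on the processing. With library totals alone, which moved the median difference of all genes by 0.84, it lies between Ghr (1.531) and Jak2 (1.625). With the GC and length trend removed, the median of the 10 genes lies between Stat5a (0.15) and Stat5b (0.27).

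The genes whose pattern over the 3 tumours was most like that of Prlr, by Euclidean distance of centred log2 CPM, were Was at a distance of 0.031 (3.27, 1.37 and 0.699 CPM), Ttc28 at 0.033 (15.8, 6.71 and 3.43 CPM) and Mgat3 at 0.058 (3.83, 1.49 and 0.763 CPM). In all, 61 of 12709 genes lay within a distance of 0.25 of Prlr. These distances take no account of counting error, which is wide for Was and Mgat3 in tumours 2 and 3. There, 3 counts correspond to 0.373 and 0.191 CPM.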

How the data were processed

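For each of 3 tumours, the authors made estimated counts by gene symbol with Salmon, per the file headers, and deposited them as 1 table. STAR, SAMtools, Picard and build mm10 are named too, per the submitters' processing notes. Tool versions, annotation release and any strand setting: not given in the sources used here. Libraries were prepared with the TruSeq mRNA kit and read as pairs of 50 bases, per the labels' protocols. Estimates were rounded to whole numbers, filtered with filterByExpr of edgeR 4.0.16 (R 4.3.3, minimum count 10, minimum total 15, 12710 genes left) and scaled by TMM. A prior count of 2 was added for log2 CPM. The quasi-likelihood test had no contrast to test, since there is 1 group. Instead, counts were set against the scaled totals in a chi-square test, with Benjamini-Hochberg adjustment over all genes and a threshold of 0.05, after a test on simulated data. Lengths, GC contents and positions came from GENCODE M21 (97.1% of tested genes matched) and promoter windows from RefSeq (GRCm38.p6). Named by rule were the 10 genes, the 3 highest and the widest-ranging past the filter of each list, list members with 0 counts throughout (Prl), Erbb2, and the genes nearest to Prlr; others were picked once their values were known, as stated where each appears; marker lists are given mainly by their sums, except the lymphocyte list, which is not reported here. The genes and lists were chosen with earlier results of these data known. Alternatives were DESeq2 1.42.0 size factors, library totals alone, TMM without muscle markers, no filter, other prior counts, GC and length correction, stricter thresholds, and each tumour left out.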

Additional observations from a re-analysis of the deposited data

How the results depend on the processing

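Counts among the 10 genes kept within 1.5 times their value with DESeq2 size factors, TMM factors without muscle markers and Rn18s-rs5, no filter, and prior counts of 0.5 and 10. With library totals alone, 7 genes stood above (40.4% of all genes) and 1 below (10.5%) in tumour 1, 2 below in tumour 2 (17.2%) and 1 above in tumour 3 (0.976%). With the GC and length trend removed, 1 stood above in tumour 1 (19.3%) and 1, Socs3, below in tumour 2 (6.3%). At 4-fold, 4 genes were apart, and 0 stood above or below in tumour 1 and 0 below in tumour 3. With 1 tumour left out, between 1 and 6 genes were 2-fold apart (15.9% to 59.3% of all genes), 6 to 10 passed the chi-square test (62% to 85.1%), 4 stood above (25.9% to 31.6%) and 2 below (23.6% to 27.7%) in tumour 1, 1 to 2 above (7.43% to 27.7%) and 0 to 4 below (8.48% to 31.6%) in tumour 2, and 0 to 2 above (8.48% to 23.6%) and 1 to 4 below (7.43% to 25.9%) in tumour 3. The lowest counts of genes apart and of chi-square calls were without tumour 1. The causes were not tested. An adjusted p under 0.001 called the same number by chi-square. The share of all genes at that threshold is not given here, and at 0.05 it was already 94.2%. Of 270 recomputed differences of single genes, 252 moved by less than the gene's own SD over the tumours. This yardstick is widest for the genes that vary most. By it Prlr and Jak1 did not move with the GC and length trend removed, although neither was then called. No called difference of the 10 genes changed sign in any of these alternatives. No paired analysis was possible because there is 1 group. Depth limits Prlr most, which rests on 59 and 61 counts in tumours 2 and 3.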
